A study of Homo sapiens with 14 samples.

Results

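The BCL2 family decides whether a mitochondrion keeps its outer membrane intact, and its transcripts are described here in HT-29 cells treated with tumour necrosis factor (TNF) and with 2 inhibitors of lipid peroxidation. The members are 10 genes of the family, chosen with earlier results of these data known and matched by name in the deposited count table. BCL2L1, MCL1 and BCL2 oppose apoptosis, and BAX and BAK1 form the pore. The BH3-only genes are BID, BMF, BIK, BBC3 and PMAIP1. All 10 were found among the 36555 genes of the table, and all 10 passed the filter on low counts, which left 22179 genes to test. HT-29 is a human colorectal carcinoma line, and the labels call the cells wild type. RNA sequencing of poly(A) RNA gave 14 libraries in 6 groups. The control cells (3 libraries) were kept in medium with 0.1% DMSO. The others were treated for 72 h with 20 uM ferrostatin-1 (2 libraries), 20 uM liproxstatin-1 (2 libraries), TNF (2 libraries), TNF with ferrostatin-1 (3 libraries) or TNF with liproxstatin-1 (2 libraries), at the same compound doses. TNF was human recombinant TNF-a, at 100 ug/ml as labelled. All groups share 1 cell line, and the series describes its repeats as technical, so each p-value measures only the spread between these libraries.

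As background, BAX and BAK1 permeabilise the outer mitochondrial membrane, which lets cytochrome c into the cytosol and starts caspase activation. BCL-XL (from BCL2L1), MCL1 and BCL2 hold them in check by binding them and the BH3-only proteins, which sense different stresses: BID is cleaved by caspase-8 below death receptors, PUMA (from BBC3) and NOXA (from PMAIP1) are known p53 targets, BMF is linked to detachment and cytoskeletal stress, and BIK sits largely at the endoplasmic reticulum. Both compounds trap lipid radicals and are used to block ferroptosis, a form of death by lipid peroxidation that does not need the BAX/BAK1 pore. TNF binds TNFR1, which can engage NF-kB survival transcription or caspase-8. Much BCL2 family control acts on protein, through cleavage, binding and turnover, which transcript counts do not measure.

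BMF and BID are the members whose rise with TNF alone against control held in every setting tried, so their promoters are shown. The windows run from 250 bases before to 50 after the RefSeq start site (GRCh38.p14, both on the minus strand, 5′ to 3′). The capitals mark a match to the NF-kB consensus motif, searched on both strands.
BMF chr15:40108830-40109129: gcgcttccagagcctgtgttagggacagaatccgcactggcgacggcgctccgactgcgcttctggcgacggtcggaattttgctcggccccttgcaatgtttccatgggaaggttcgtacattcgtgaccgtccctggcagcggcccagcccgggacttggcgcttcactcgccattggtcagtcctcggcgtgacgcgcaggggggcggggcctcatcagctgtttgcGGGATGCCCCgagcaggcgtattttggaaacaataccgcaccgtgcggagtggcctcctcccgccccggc
BID chr22:17774446-17774745: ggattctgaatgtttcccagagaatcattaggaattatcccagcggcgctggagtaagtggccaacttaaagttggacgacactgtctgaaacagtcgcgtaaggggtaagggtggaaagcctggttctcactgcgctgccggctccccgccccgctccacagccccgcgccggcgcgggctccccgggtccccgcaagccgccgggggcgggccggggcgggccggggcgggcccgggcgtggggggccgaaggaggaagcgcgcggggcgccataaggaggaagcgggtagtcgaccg
The start sites, 40108879 for BMF and 17774495 for BID, are also the 5′ ends of both genes in the deposited table. The BMF match lies at -20 to -11 from the start site and reads on both strands. No match was found in the BID window. Of all 35114 promoter windows of this length in the RefSeq table, 11.3% hold a match, and of the members only BMF does among the 8 with an entry. MCL1 and BIK have none in that table. A match to the p53 half-site, held by 6.63% of windows, was found in BAK1 only, at -73 to -64. These are descriptions of letters in a window, not of binding.

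The count totals ran from 59913850 to 75838597 per library. CPM below is the count scaled to the normalized library size. On principal components of log2 CPM over the tested genes, the first component (23.7% of the variance) set all libraries with TNF at 41.2 or above and all without at -20.1 or below. TNF library 1 stood apart on the second (13.2%), at 121 against 19.7 for TNF library 3 and between -37.8 and 10.2 for the rest. Control library 2 lay at -20.1 on the first, against -44.7 and -47.1 for the other controls. The labelled cell type was checked on 11 markers of colorectal epithelium, of which 10 were above 1 CPM in every library and CDX1 was not (0 to 0.397 CPM). Of 8 leukocyte markers 5 are in the table and summed to 8.66 to 12.9 CPM over all libraries (9.76 to 10.9 in the TNF group, 10.4 to 12.6 in control). Nearly all of that was CD14 (8.29 to 12.6 CPM, at 0 in no library), while PTPRC, the pan-leukocyte marker, was at 0 in 13 of 14. The summed CPM of 6 fibroblast markers was 24.5 to 44.9 in the TNF group, against 2.48 to 16.4 in all other groups, with COL1A1 from 1.87 to 23.3 CPM, COL1A2 at 0 in 6 libraries and COL3A1 at 0 in 5. The 4 endothelial markers summed to 0.905 to 46.0 CPM, and to 8.79 to 9.23 in the TNF group. Fits with the sums of these 2 lists as covariates stand beside the results. The fibroblast sum sets the TNF group apart from all others. In comparisons with that group, the covariate and the group therefore cannot be told apart. A call lost in such a fit does not show a part played by these markers. In bulk RNA, fewer cells of a type and less RNA per cell cannot be told apart.

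Per length, the family's transcripts were dominated by 2 anti-apoptotic genes. FPKM, the deposited level scaled to gene length and depth, was used for the 8 libraries of 3 groups whose columns match 1 sample each: control and TNF combined with either compound. BCL2L1 had the highest mean FPKM in all 3, with a lowest, median and highest library of 95.2, 106 and 143 FPKM. MCL1 was next, at 72.7, 83.0 and 90.9 FPKM, below the range of BCL2L1. BCL2, the gene that names the family, lay at the bottom at 0.0256 to 0.0605 FPKM, and its 21 to 61 reads per library over all 14 make its differences imprecise. The pore-forming genes came in between, with overlapping ranges of 24.9 to 30.3 FPKM for BAX and 22.2 to 26.5 FPKM for BAK1. Of the BH3-only genes, BID (10.2 to 25.0 FPKM), BBC3 (9.28 to 13.7 FPKM) and PMAIP1 (7.29 to 12.7 FPKM) overlapped, BMF ran from 4.34 to 10.7 FPKM and BIK from 1.51 to 4.40 FPKM. On counts per unit of library size, which carry gene length, MCL1 stood above BCL2L1 in 1 of the 3 groups, TNF with ferrostatin-1.

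**Figure D1:**
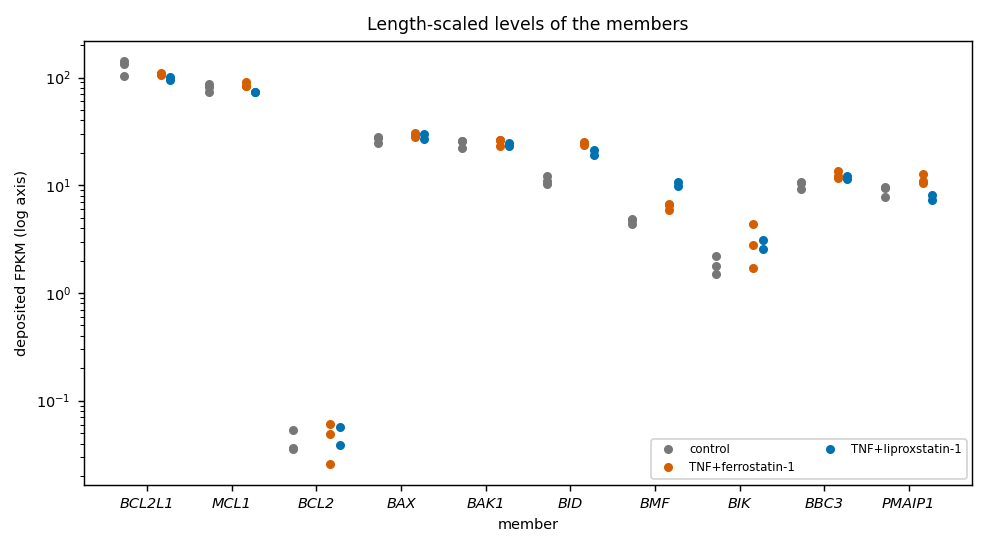
Deposited FPKM (log axis) of the 10 members in 8 libraries, 1 point per library, coloured by group (3 groups). BCL2L1 and MCL1 are at 72.7 FPKM or above in all 8 and BCL2 is at 0.0605 FPKM or below.

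The balance of an anti-apoptotic gene against a pore-forming gene was taken as the log2 ratio of their counts within a library, which library scaling does not touch. BCL2L1 over BAX was 2.58 ± 0.33 (SD, n = 3) in control, with libraries from 2.23 to 2.88. It was 2.83 ± 0.08 (n = 2) in ferrostatin-1 and 2.92 ± 0.07 (n = 2) in liproxstatin-1. With TNF it was 2.45 ± 0.04 (n = 2), with TNF and ferrostatin-1 2.24 ± 0.03 (n = 3), and with TNF and liproxstatin-1 2.14 ± 0.16 (n = 2). The 7 libraries with TNF lie within or below the range of the controls, and below the 4 libraries of either compound alone. For BCL2L1 over BAK1, too, each group mean with TNF was below each mean without it, at 2.93 ± 0.13 in control and 2.62 ± 0.10 in TNF with liproxstatin-1. MCL1 over BAX split the TNF group, at 1.81 in library 1 and 2.43 in library 3, and gives no stable value there. For MCL1 over BAK1 the pattern of BCL2L1 did not hold. That ratio was 2.71 ± 0.04 in control, 2.78 ± 0.29 in ferrostatin-1 and 2.76 ± 0.05 in liproxstatin-1. It was 2.36 ± 0.47 with TNF, 2.75 ± 0.18 with TNF and ferrostatin-1, and 2.60 ± 0.03 with TNF and liproxstatin-1.

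TNF raised the 5 BH3-only members, and no other member passed the test. Of the 10 members, 5 were higher and 0 lower than in control (BID, BMF, BIK, BBC3 and PMAIP1), while 14.7% of all tested genes changed, 8.24% upward and 6.44% downward. The median log2 fold change of the members was 0.45, against -0.02 over all tested genes. As the members were chosen with earlier results of these data known, these contrasts are descriptions.

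**Figure D2:**
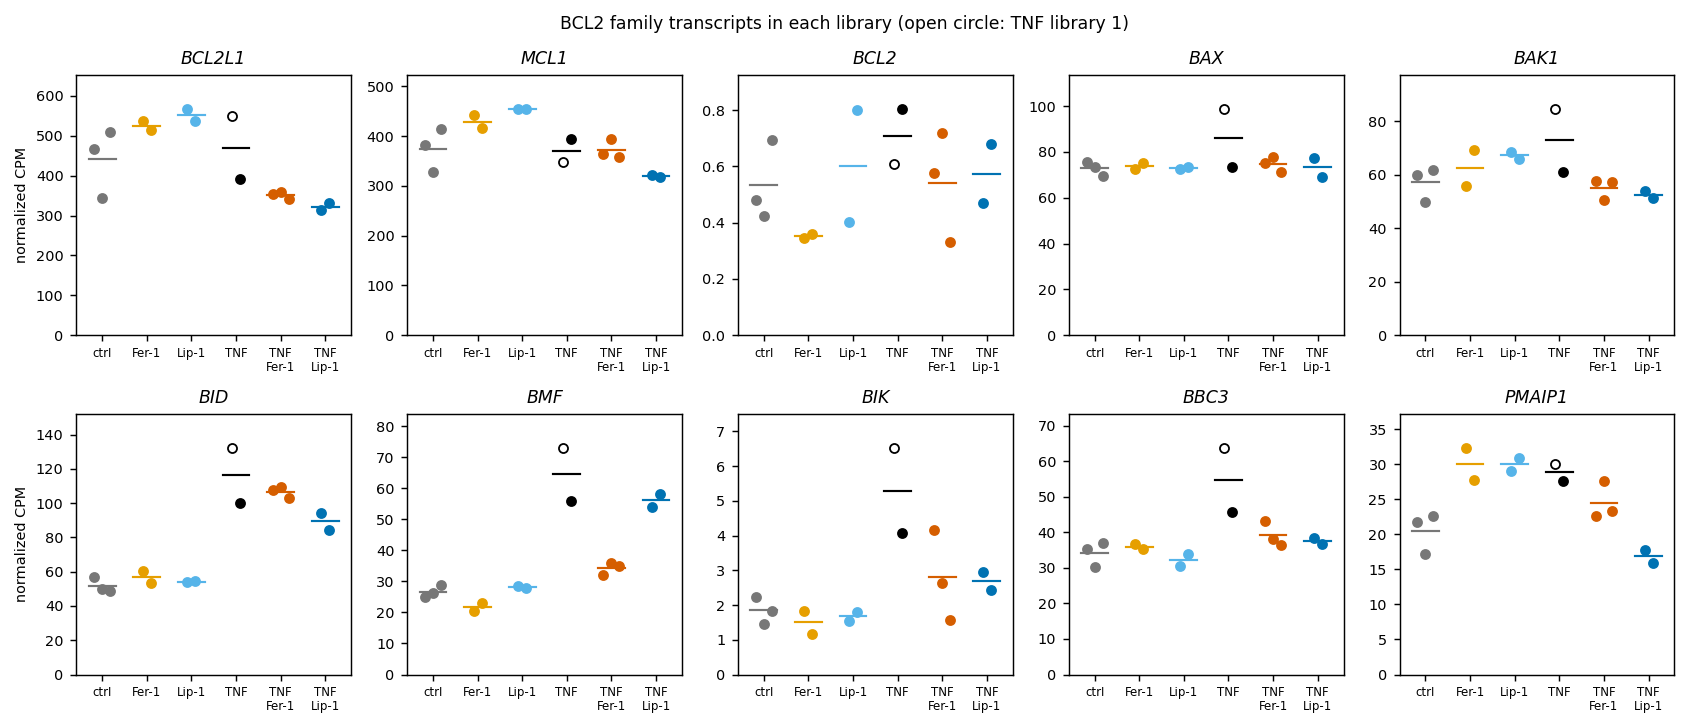
Normalized CPM (counts scaled to library size, linear axes from 0) of each member, with 1 point per library and a bar at the group mean; ctrl is control, Fer-1 ferrostatin-1 and Lip-1 liproxstatin-1. The open circle is TNF library 1, the highest of all libraries for BAX, BAK1, BID, BMF, BIK and BBC3.

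BMF, whose product ties detachment to the mitochondrion, was at 25.1, 26.2 and 28.8 CPM in the controls and at 73.0 and 55.9 CPM in TNF libraries 1 and 3. Both TNF libraries lay above every control. Its log2 fold change was 1.27 (SE 0.12, 2.41-fold, edgeR adjusted p = 4.24e-05). BID, the substrate of caspase-8, was at 56.9, 49.7 and 48.9 CPM in the controls and at 132 and 100.1 CPM with TNF, again without overlap. Its log2 fold change was 1.17 (SE 0.12, 2.24-fold, edgeR adjusted p = 7.21e-05). Both calls held in all 14 alternatives, at 1.04 to 1.47 for BMF and 0.91 to 1.35 for BID; with the fibroblast and endothelial marker sums as covariates they were 1.47 (adjusted p = 0.00505) and 1.14 (adjusted p = 0.019). Without TNF library 1, BMF was at 1.07 and BID at 0.95.

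BIK, the BH3-only gene of the endoplasmic reticulum, was at 2.24, 1.46 and 1.83 CPM in control and at 6.52 and 4.07 CPM with TNF, the widest change of any member at 1.52 (SE 0.37, edgeR adjusted p = 0.0178). BBC3, encoding PUMA, was at 35.4, 30.1 and 37.1 CPM against 63.7 and 45.8 CPM, a log2 fold change of 0.68 (SE 0.14, adjusted p = 0.0091). PMAIP1, encoding NOXA, was at 21.8, 17.1 and 22.6 CPM against 30.1 and 27.6 CPM, a log2 fold change of 0.49 (SE 0.14, adjusted p = 0.0382). For these genes, too, no TNF library overlapped a control. The calls were less firm than those of BMF and BID. Without TNF library 1 they were lost (BIK 1.14, adjusted p = 0.134; BBC3 0.42, adjusted p = 0.0586; PMAIP1 0.43, adjusted p = 0.138). BIK was also lost without control library 2 (1.36, adjusted p = 0.0501) and control library 3 (1.52, adjusted p = 0.0546), and PMAIP1 without control library 1 (0.54, adjusted p = 0.0708) and control library 2 (0.36, adjusted p = 0.0889). With the marker covariates the adjusted p was 0.287 for BIK, 0.188 for BBC3 and 0.25 for PMAIP1. TNF library 1 was the higher of its pair for 8 of 10 members, by 1.09 times (PMAIP1) to 1.60 times (BIK).

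Among the genes that did not pass, BCL2L1 was at 468, 345 and 511 CPM in control and at 550 and 392 CPM with TNF, and its difference had a 95% interval of -0.25 to 0.44 on the log2 scale. Leaving out control library 2 and TNF library 1 together turned BCL2L1 to -0.33 (adjusted p = 0.0117). MCL1 had an interval of -0.24 to 0.20. The intervals were -0.01 to 0.50 for BAX and 0.03 to 0.68 for BAK1 (adjusted p = 0.188 and 0.134). Without TNF library 3, which leaves library 1 alone in its group, both were called higher, at 0.44 (adjusted p = 0.00167) for BAX and 0.57 (adjusted p = 0.0058) for BAK1. BCL2 had an interval of -0.52 to 1.33, too wide to tell a rise from a fall at its depth.

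Neither compound on its own changed a member past the threshold. With ferrostatin-1, 0 of 10 were called at a background of 0.564%, and with liproxstatin-1 0 of 10 at 0.0586%. At an unadjusted p under 0.05, 2 members differed with ferrostatin-1 (PMAIP1 and BMF) and 2 with liproxstatin-1 (PMAIP1 and MCL1). Of the 22179 tested genes, 2726 and 2658 did so. DESeq2 called 1 member in each case, beside 765 and 495 genes in all. The limma-voom fit called 1 and 2 members, beside 1604 and 1463 genes in all. PMAIP1 had the smallest p with either compound. It was at 32.3 and 27.8 CPM in ferrostatin-1 and at 29.1 and 30.9 CPM in liproxstatin-1, above all 3 controls (17.1 to 22.6 CPM). Its log2 fold change was 0.55 with either compound (SE 0.14 each; edgeR adjusted p = 0.118 and 0.189). These 2 comparisons share their controls. The other genes' log2 fold changes with ferrostatin-1 were -0.60 for BCL2 (95% interval -1.57 to 0.37), 0.19 for MCL1, 0.02 for BAX, 0.13 for BAK1, 0.14 for BID, -0.29 for BIK and 0.07 for BBC3. With liproxstatin-1 they were 0.18 for BCL2, 0.00 for BAX, 0.23 for BAK1, 0.07 for BID, -0.14 for BIK and -0.09 for BBC3.

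BMF was at 20.4 and 23.1 CPM in ferrostatin-1, below all controls, and at 28.5 and 27.9 CPM in liproxstatin-1, within their range; its log2 fold changes were -0.30 (edgeR adjusted p = 0.363) and 0.08 (adjusted p = 0.886). MCL1 was at 453 and 455 CPM in liproxstatin-1 against 328 to 414 CPM in control, a log2 fold change of 0.28 (adjusted p = 0.306). BCL2L1 was at 514 to 568 CPM in the 4 compound libraries, above the 3 controls, with log2 fold changes of 0.25 and 0.32 (adjusted p = 0.58 and 0.441). Compared directly, liproxstatin-1 and ferrostatin-1 at 20 uM differed in 0 of 10 members, at a background of 0.104%; BMF had the smallest p, at 0.38 higher in liproxstatin-1 (95% interval 0.08 to 0.68, edgeR adjusted p = 0.586, unadjusted p = 0.0183), the only member under an unadjusted 0.05, and DESeq2 called 0 as well. Of the 22179 tested genes, 1444 had an unadjusted p under 0.05 in this comparison, and DESeq2 called 199 genes in all. Among the members, the intervals were narrowest for MCL1 (-0.16 to 0.32) and BAX (-0.30 to 0.26). They were -0.30 to 0.45 for BCL2L1, -0.25 to 0.46 for BAK1, -0.37 to 0.22 for BID, -0.50 to 0.19 for BBC3 and -0.34 to 0.34 for PMAIP1, and wide for BIK (-0.75 to 1.07) and BCL2 (-0.27 to 1.83).

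Ferrostatin-1 lowered BMF in TNF-treated cells, and BMF was the only member called of 10, at a background of 5.52% (1.77% upward, 3.75% downward). BMF was at 32.0, 36.0 and 35.0 CPM with both agents, against 73.0 and 55.9 CPM with TNF alone and 25.1 to 28.8 CPM in control. The 3 libraries with both agents lay below both TNF libraries and above every control. The log2 fold change against TNF was -0.91 (SE 0.12, edgeR adjusted p = 0.00565). It stayed called when any 1 library was left out, at -0.70 (adjusted p = 0.00673) without TNF library 1 and at -1.09 without TNF library 3. With the marker sums as covariates it was -1.17 with an adjusted p of 0.442, under limma-voom -0.91 with 0.0533, and in a fit of the 2 groups alone -0.88 with 0.218. The fibroblast marker sum was 2.48 to 4.50 CPM in TNF with ferrostatin-1 and 24.5 to 44.9 CPM in TNF. The covariate fit therefore cannot separate that sum from the compared groups.

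**Figure D3:**
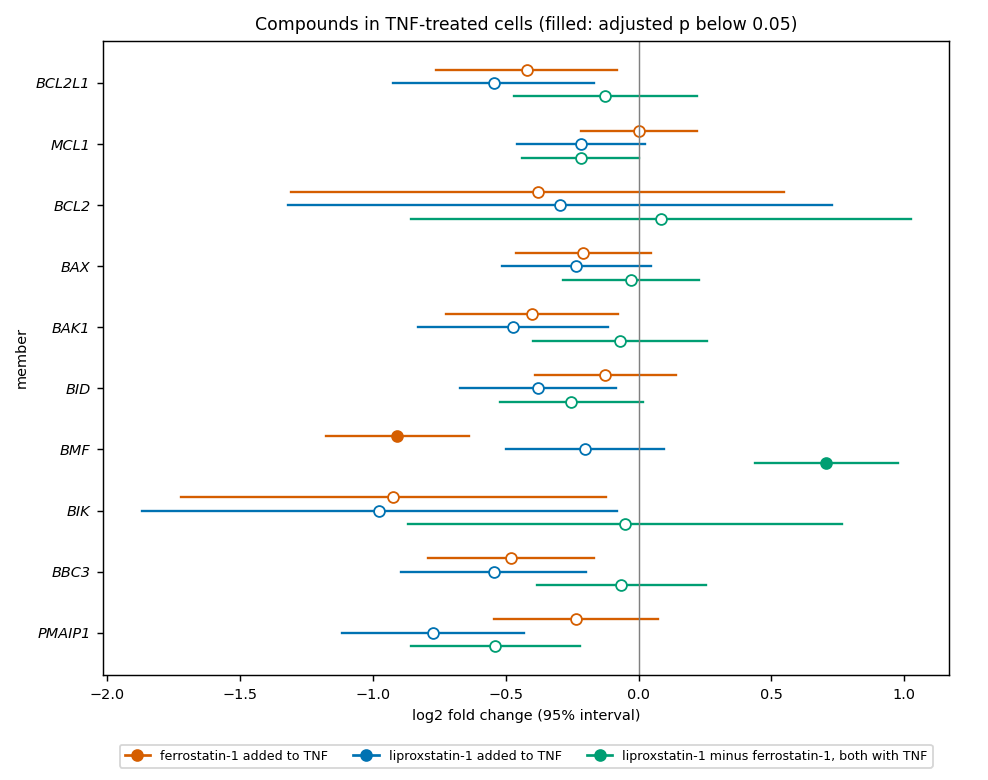
Log2 fold changes with 95% intervals for ferrostatin-1 added to TNF, liproxstatin-1 added to TNF, and the difference between both compounds under TNF. Filled points, an adjusted p below 0.05, appear for BMF only, at -0.91 with ferrostatin-1 and 0.71 for liproxstatin-1 over ferrostatin-1.

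BID did not follow BMF: it was at 108, 110 and 103 CPM, within the span of the TNF libraries (100.1 to 132 CPM), with a log2 fold change of -0.12 (95% interval -0.39 to 0.14). BBC3 was at 43.3, 38.1 and 36.4 CPM, below both TNF libraries, with -0.48 (SE 0.14, edgeR adjusted p = 0.0662). BIK was at 4.16, 2.64 and 1.57 CPM and overlapped TNF library 3; its value was -0.92 (adjusted p = 0.127). BCL2L1 (-0.42, adjusted p = 0.109) and BAK1 (-0.40, adjusted p = 0.108) had libraries below both TNF libraries without passing the test. PMAIP1 (-0.23) and BAX (-0.21) had intervals that included 0, as did BCL2 (-0.38, interval -1.31 to 0.55), and MCL1 was at 0.00 with an interval of -0.22 to 0.22. Beside BMF, the values depended on the TNF library that stood for the group. Without TNF library 3, which leaves library 1 alone, BCL2L1 was at -0.64, BAK1 at -0.62 and BBC3 at -0.70. Over all single leave-outs, the other end of their ranges was -0.16, -0.15 and -0.23. MCL1 ran from -0.09 to 0.10 over the same leave-outs.

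**Figure D4:**
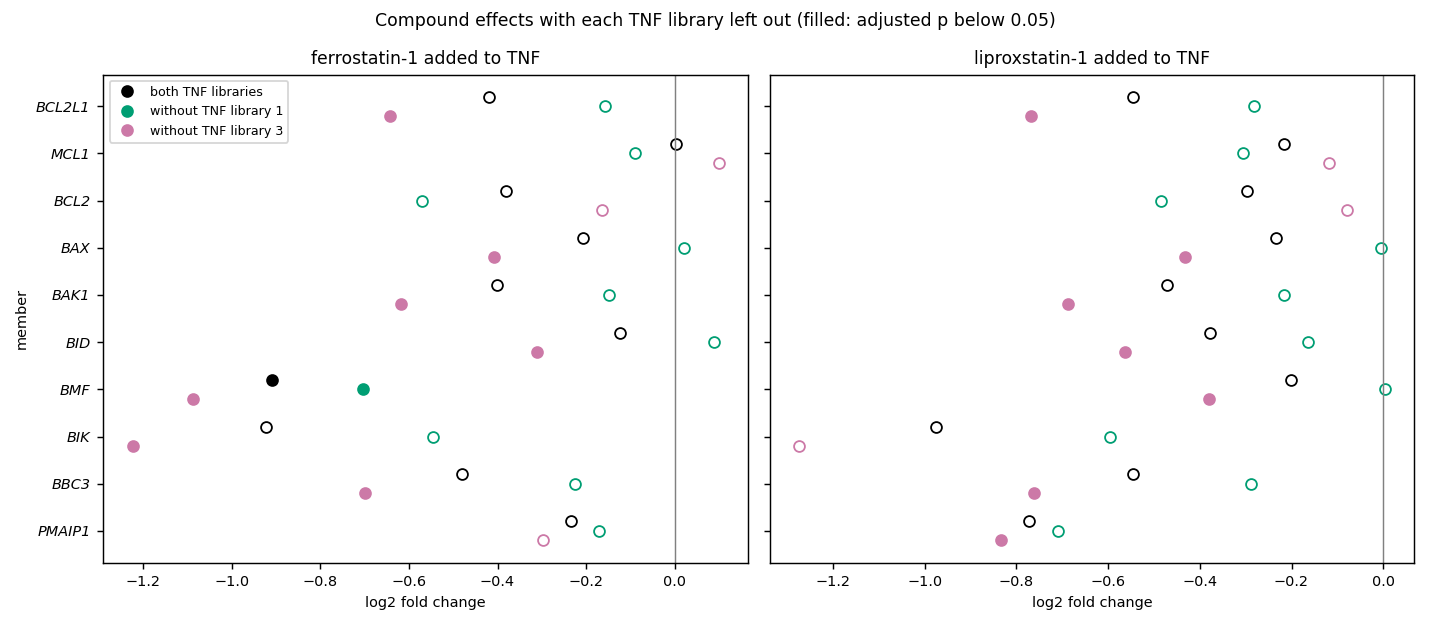
Log2 fold change of each member when ferrostatin-1 (left) or liproxstatin-1 (right) was added to TNF, with both TNF libraries and with either left out; filled points have an adjusted p below 0.05. Each leave-out leaves a lone TNF library, so for those points only the position is read, not the filling. Without TNF library 3, BBC3 lies at -0.70 in the left panel and -0.76 in the right.

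With liproxstatin-1 added, 0 of 10 members passed the test, at a background of 0.343%. At an unadjusted p under 0.05 there were 6, all lower, beside 5119 of the 22179 tested genes in either direction. DESeq2 called 4 members and 2444 genes in all. PMAIP1 had the smallest p: it was at 17.8 and 15.9 CPM, below both TNF libraries (30.1 and 27.6 CPM), with a log2 fold change of -0.77 (SE 0.16, 95% interval -1.12 to -0.43, edgeR adjusted p = 0.0599). The library values with both agents overlap those of the untreated controls (17.1 to 22.6 CPM). BBC3 was at 38.5 and 36.6 CPM, also below both TNF libraries, with -0.55 (SE 0.16, adjusted p = 0.0994).

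BMF was at 53.9 and 58.3 CPM with both agents, on either side of TNF library 3 (55.9 CPM), with a difference of -0.20 and a 95% interval of -0.50 to 0.10. BID was at 94.4 and 84.6 CPM, below both TNF libraries, at -0.38 (adjusted p = 0.137). BCL2L1 was at 314 and 331 CPM, BAK1 at 53.9 and 51.3 CPM, each below both TNF libraries, with -0.55 (adjusted p = 0.112) and -0.47 (adjusted p = 0.132). BIK, at 2.95 and 2.44 CPM, lay below both TNF libraries too, at -0.97 (SE 0.41, 95% interval -1.87 to -0.08, adjusted p = 0.185). MCL1 was at 322 and 317 CPM with an interval of -0.46 to 0.02. The intervals of BAX (-0.52 to 0.05) and BCL2 (-1.32 to 0.73) included 0. PMAIP1 was at -0.83 without TNF library 3 and at -0.71 without TNF library 1, each with a lone TNF library left in the group.

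Under TNF the compounds differed in BMF, at the same dose of 20 uM and time of 72 h. Of 10 members 1 was called, at a background of 0.766% (0.681% upward, 0.0857% downward). The libraries with liproxstatin-1 (53.9 and 58.3 CPM) lay above the 3 with ferrostatin-1 (32.0 to 36.0 CPM), and the log2 difference was 0.71 (SE 0.12, 1.63-fold, edgeR adjusted p = 0.0254). Without any 1 library it lay between 0.64 and 0.75 with adjusted p from 0.0938 to 0.281, and so was not called: 0.103, 0.106 and 0.0938 without TNF with ferrostatin-1 libraries 1, 2 and 3, and 0.177 and 0.281 without TNF with liproxstatin-1 libraries 1 and 2. With the marker covariates it was 0.83 (adjusted p = 0.153). With library number as a block it was 0.70 (adjusted p = 0.0854), and in a fit of the 2 groups alone it was 0.71 (adjusted p = 0.00426).

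PMAIP1 lay the other way, at 15.9 and 17.8 CPM with liproxstatin-1 against 22.6 to 27.6 CPM with ferrostatin-1, without overlap, a log2 difference of -0.54 (95% interval -0.86 to -0.22, edgeR adjusted p = 0.174). For the other members the intervals bound what could have been missed: -0.47 to 0.22 for BCL2L1, -0.44 to 0.00 for MCL1, -0.28 to 0.23 for BAX, -0.40 to 0.26 for BAK1, -0.52 to 0.02 for BID and -0.38 to 0.25 for BBC3. BIK (-0.87 to 0.77) and BCL2 (-0.86 to 1.02) were measured too loosely to tell.

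Set against cells with the same compound and no TNF, TNF again raised BID and BMF, and it lowered BCL2L1 in both cases. In ferrostatin-1 2 members rose and 1 fell, at a background of 18.1% (8.76% up, 9.36% down). In liproxstatin-1 2 rose and 3 fell, at a background of 14.6% (7.57% up, 7.03% down). BID went from 60.4 and 53.7 CPM to between 103 and 110 CPM in ferrostatin-1 (log2 fold change 0.90, SE 0.13, edgeR adjusted p = 0.000535), and from 53.7 and 54.7 CPM to 94.4 and 84.6 CPM in liproxstatin-1 (0.72, SE 0.13, adjusted p = 0.00437). All libraries with TNF lay above all without it. Both BID calls held in every alternative run.

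BMF went from 20.4 and 23.1 CPM to between 32.0 and 36.0 CPM in ferrostatin-1 (0.66, SE 0.13, adjusted p = 0.00395). In liproxstatin-1 it went from 28.5 and 27.9 CPM to 53.9 and 58.3 CPM (0.99, SE 0.14, adjusted p = 0.000832), a call that held in every alternative. In ferrostatin-1 it was lost without ferrostatin-1 library 1 (0.57, adjusted p = 0.0634) and with the marker covariates (0.50, adjusted p = 0.147). BIK and BBC3 did not pass in either compound, with BIK at 0.89 and 0.68 (adjusted p = 0.141 and 0.325) and BBC3 at 0.13 and 0.22. BAX was at 0.01 in both (95% intervals -0.24 to 0.27 and -0.27 to 0.29). BAK1 was at -0.18 in ferrostatin-1 and -0.35 in liproxstatin-1 (adjusted p = 0.185 in the latter), and BCL2 at 0.62 and -0.07 with wide intervals (-0.35 to 1.60 and -1.10 to 0.96). BAK1 in liproxstatin-1 was called lower in 3 of 13 alternatives, among them limma-voom (adjusted p = 0.0198) and the compared groups alone (edgeR adjusted p = 0.00906).

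**Figure D5:**
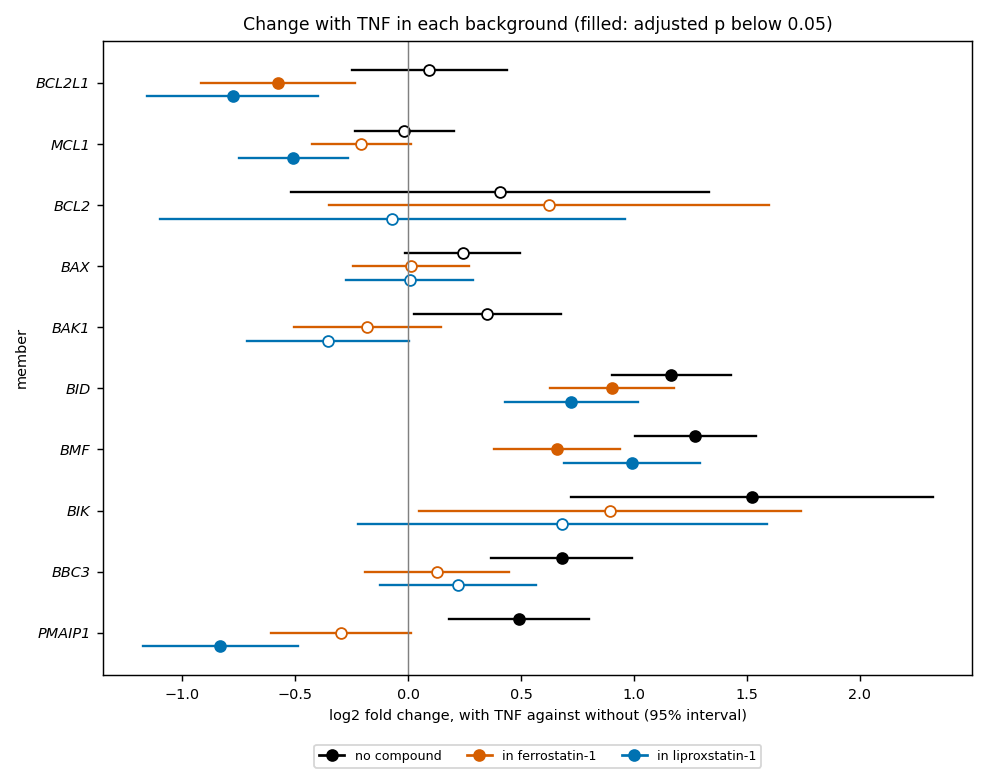
Log2 fold change with TNF against without, with 95% intervals, in cells without compound, in ferrostatin-1 and in liproxstatin-1; filled points have an adjusted p below 0.05. BID and BMF are filled in all 3 settings, and BCL2L1 is filled only where a compound was present, at -0.58 and -0.78.

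BCL2L1, encoding the anti-apoptotic BCL-XL, went from 536 and 514 CPM to 354, 360 and 341 CPM in ferrostatin-1, a log2 fold change of -0.58 (SE 0.16, edgeR adjusted p = 0.0234). In liproxstatin-1 it went from 568 and 537 CPM to 314 and 331 CPM, at -0.78 (SE 0.17, adjusted p = 0.0116). There was no overlap in either case. The call in ferrostatin-1 was lost when any 1 library was left out: at -0.55 (adjusted p = 0.133) and -0.61 (0.0941) without ferrostatin-1 libraries 1 and 3, and at -0.58 (0.0617), -0.59 (0.0574) and -0.56 (0.0711) without libraries 1, 2 and 3 of TNF with ferrostatin-1. It was lost with the marker covariates (-0.62, adjusted p = 0.177) and with library number as a block (-0.53, adjusted p = 0.0657). The call in liproxstatin-1 was lost without liproxstatin-1 library 1 (-0.73, adjusted p = 0.0747) and without either library of TNF with liproxstatin-1 (-0.75, 0.0803; -0.82, 0.0635).

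MCL1, the short-lived anti-apoptotic protein's gene, passed the test in liproxstatin-1, where it fell from 453 and 455 CPM to 322 and 317 CPM, at -0.51 (SE 0.11, edgeR adjusted p = 0.0099). In ferrostatin-1 it was at -0.21 (adjusted p = 0.189), and was called lower in 3 of 14 alternatives. Among them were limma-voom (adjusted p = 0.0207) and the compared groups alone (edgeR adjusted p = 0.0384). For the call in liproxstatin-1 the leave-outs were as follows. Leaving out any 1 of the 4 libraries gave -0.50 to -0.53 with adjusted p between 0.0567 and 0.0725 (0.062 and 0.0625 without liproxstatin-1 libraries 1 and 3, 0.0567 and 0.0725 without TNF with liproxstatin-1 libraries 1 and 2), and the block gave -0.47 with 0.053. PMAIP1 fell from 29.1 and 30.9 CPM to 17.8 and 15.9 CPM in liproxstatin-1 (-0.83, SE 0.16, adjusted p = 0.0048), where TNF without a compound had raised it. It was at -0.76 (adjusted p = 0.0565) without TNF with liproxstatin-1 library 2. In ferrostatin-1 PMAIP1 was at -0.30 (adjusted p = 0.186).

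Whether a compound changed the response to TNF was tested directly as an interaction, and 0 of 10 members passed for either compound (backgrounds 0.00451% and 0%; 4238 and 4329 of all tested genes had an unadjusted p under 0.05). At an unadjusted p under 0.05 there were 5 members for ferrostatin-1 and 5 for liproxstatin-1. DESeq2 called 2 and 4 members, beside 1309 and 1197 genes in all. PMAIP1 had the smallest p in both: -1.32 for liproxstatin-1 (SE 0.21, 95% interval -1.78 to -0.86, edgeR adjusted p = 0.0821) and -0.79 for ferrostatin-1 (SE 0.20, adjusted p = 0.114). For liproxstatin-1 the PMAIP1 term passed without TNF library 1 (-1.26, adjusted p = 0.0179) and without TNF library 3 (-1.38, adjusted p = 0.000456). BMF had -0.61 for ferrostatin-1 (adjusted p = 0.133) and -0.28 for liproxstatin-1 (adjusted p = 0.415), and BCL2L1 had -0.67 and -0.87 (adjusted p = 0.161 and 0.134). For the other 7 members the terms for ferrostatin-1 ran from -0.63 (BIK) to 0.22 (BCL2), with BAK1 at -0.53 and BBC3 at -0.55. Those for liproxstatin-1 ran from -0.84 (BIK) to -0.23 (BAX), with BAK1 at -0.71 and MCL1 at -0.49 (adjusted p = 0.158 and 0.151). In the main fit, the changes of BCL2L1, MCL1 and PMAIP1 with TNF are thus not shown to differ between cells with and without a compound. DESeq2 called the liproxstatin-1 terms of BCL2L1 (adjusted p = 0.0234), MCL1 (0.0495) and PMAIP1 (1.67e-05). The PMAIP1 term for liproxstatin-1 passed in 5 of 18 alternatives, limma-voom among them (adjusted p = 0.0488).

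Of the 6 gene lists around the family, chosen with earlier results known, NF-kB survival genes had the most calls with TNF alone. Of all tested genes, 8.24% were higher and 6.44% lower with TNF alone. With TNF in ferrostatin-1 the shares were 8.76% and 9.36%, and in liproxstatin-1 7.57% and 7.03%. In all, 11 of 14 were higher and 0 lower (median log2 fold change 0.92), led by TNFAIP3, a deubiquitinase that limits NF-kB, at 4.18 (SE 0.12, edgeR adjusted p = 8.23e-09), NFKBIA, the NF-kB inhibitor, at 2.75 (adjusted p = 3.11e-08), and NFKB2 at 2.45. The counts were 10 higher and 1 lower in ferrostatin-1 and 9 and 1 in liproxstatin-1. TNFAIP3 rose from 5.75 to 5.82 CPM in control to 95.3 to 115 CPM with TNF, and it was at 106 to 122 CPM with TNF and either compound. Of 13 genes on the death receptor route to BID, 5 were higher and 0 lower with TNF alone, among them TNFSF10, the ligand TRAIL, at 1.75 (SE 0.18, adjusted p = 6.55e-05) and TNFRSF1B, the second TNF receptor, at 2.24 (SE 0.34, adjusted p = 0.00128). In ferrostatin-1 5 of 13 were higher and 1 lower, and in liproxstatin-1 4 and 1. In liproxstatin-1 the calls of FAS and CASP10 were both lost without liproxstatin-1 library 3 (adjusted p = 0.132 and 0.174) and without TNF with liproxstatin-1 library 1 (0.133 and 0.125) or 2 (0.122 and 0.0835). CFLAR, FAS and TNFRSF10B stand on 2 lists each.

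Of 12 other BCL2 family genes tested, 2 were higher with TNF alone, where 14.7% of all genes were called, 8.24% upward (list median 0.27, all genes -0.02): BAD (0.76, SE 0.18, adjusted p = 0.015), a BH3-only gene, and BCL2L11, encoding BIM (0.40, SE 0.11, adjusted p = 0.0283). Without TNF library 1, BAD was at 0.35 (adjusted p = 0.128) and BCL2L11 at 0.34 (adjusted p = 0.0935); without control library 1 they were at 0.73 (0.055) and 0.36 (0.099), and BCL2L11 was at 0.33 (0.0668) without control library 2. In ferrostatin-1 TNF raised 3 of 12 (background 18.1%): BCL2L11 (0.39), BNIP3L (0.82) and BCL2L15 (0.57). All 3 were lost without ferrostatin-1 library 1 (adjusted p = 0.165, 0.149 and 0.194) or 3 (0.132, 0.216 and 0.219), and without any 1 library of TNF with ferrostatin-1 (adjusted p from 0.0566 to 0.136). In liproxstatin-1 it raised 1 of 12 (background 14.6%), BNIP3 (1.06), which was lost without liproxstatin-1 library 3 (0.78, adjusted p = 0.162) and without TNF with liproxstatin-1 library 1 (0.0838) or 2 (0.0921). BCL2A1, an anti-apoptotic gene known as an NF-kB target in leukocytes, had too few reads to test.

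Of the 13 genes of the apoptosome and mitochondrial release, 0 changed with TNF alone (median log2 fold change 0.00), where 14.7% of all tested genes did. With TNF in either compound 1 was lower, beside 9.36% of all genes in ferrostatin-1 and 7.03% in liproxstatin-1. This was VDAC1, a channel of the outer membrane. It fell by 0.49 on the log2 scale in ferrostatin-1 and by 0.58 in liproxstatin-1 (edgeR adjusted p = 0.00509 and 0.00496). The VDAC1 calls were lost without ferrostatin-1 library 1 (-0.46, adjusted p = 0.0545) and without TNF with liproxstatin-1 library 2 (-0.49, adjusted p = 0.063), and the former with the marker covariates (adjusted p = 0.0862). Of 10 genes of MCL1 turnover, 1 was lower with TNF alone, where 6.44% of all tested genes were lower. It was USP9X, a deubiquitinase known to stabilise MCL1, at -1.36 (SE 0.34, edgeR adjusted p = 0.0208). Without control libraries 1 and 3 it was at -1.33 each time (adjusted p = 0.0568 and 0.0534).

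Of 20 genes of p53 and its targets, which hold known neighbours of BBC3 and PMAIP1 in that response, TNF alone left 15 uncalled, 4 higher and 1 lower. The median was -0.04. Of all tested genes, 8.24% were higher and 6.44% lower. PHLDA3, a p53-induced inhibitor of AKT, was at 1.61 (SE 0.15, adjusted p = 2.62e-05) and DDB2, a damage sensor, at 1.04 (SE 0.21, adjusted p = 0.00779). MDM2 was the 1 lower gene, and FDXR was among those higher. Both calls were lost without control library 1 (edgeR adjusted p = 0.102 and 0.116) or 3 (0.0936 and 0.0964). They were lost too without TNF library 1, with MDM2 at -0.24 and FDXR at 0.24. With ferrostatin-1 added to TNF, 0 of 20 were higher and 4 lower, beside 1.77% and 3.75% of all tested genes. Of the 4, SESN2, a stress-induced regulator of mTORC1, had the smallest p (-1.16, SE 0.22, edgeR adjusted p = 0.0199). SESN2 was also the 1 gene of the list lower with liproxstatin-1 added (-1.39, SE 0.25, edgeR adjusted p = 0.0415), where 0.343% of all tested genes were called. The others were TP53I3 (-0.85), GDF15 (-1.05) and FDXR (-0.50). All 4 calls were lost, leaving 0, without TNF library 1 (TP53I3 -0.50, adjusted p = 0.261; GDF15 -0.65, 0.33; FDXR -0.29, 0.273) and without any 1 library of TNF with ferrostatin-1, where the adjusted p of these 3 genes ran from 0.0879 to 0.142. Without TNF library 1 SESN2 was at -0.83 (0.0791) with ferrostatin-1 and -1.05 (0.0548) with liproxstatin-1. Its calls were lost too without libraries 1, 2 and 3 of TNF with ferrostatin-1 (-1.14, 0.0657; -1.20, 0.0767; -1.13, 0.0802) and without either library of TNF with liproxstatin-1 (-1.30, 0.236; -1.48, 0.233). Both compounds alone changed 0 genes of all 6 lists. With the marker covariates the adjusted p was 0.0923 for BAD, 0.295 for BCL2L11, 0.155 for USP9X and 0.185 for DDB2 with TNF alone, and 0.442 and 0.276 for SESN2 with ferrostatin-1 and liproxstatin-1 added, and all 6 calls were also lost with the compared groups alone. The calls of TNFAIP3, NFKBIA, NFKB2, TNFSF10, TNFRSF1B and PHLDA3 with TNF alone held in every setting.

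Several members share ground with other genes in the GENCODE v29 annotation, and whether the counting used strand is not known from the sources, so their values are uncertain to that extent. BMF overlaps BMF-AS1 on the opposite strand, and BCL2L1 overlaps ABALON, which was counted at up to 51.0 CPM. BAK1 overlaps GGNBP1 (0 to 0.193 CPM) and MCL1 overlaps ADAMTSL4-AS1 (0.0141 to 0.350 CPM).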

How the data were processed

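Poly(A) RNA was made into paired-end libraries with dUTP strand marking, per the labels' protocols. The authors deposited 1 table, with unnormalized counts and FPKM for each gene. Cutadapt 1.9, HISAT2 2.0.4 and StringTie 1.3.4d, and edgeR and DESeq2 without versions, are named in the submitters' processing notes without their roles; genome build, annotation, counting program and use of strand were not given in the sources used here. Counts were taken as deposited. FPKM, scaled by the authors to length and depth, was used only to compare levels between genes, in the 8 libraries whose FPKM column matches 1 sample; 6 FPKM columns, which match a group only, were not used.

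From the counts, edgeR 4.0.16 (R 4.3.3) fitted 1 quasi-likelihood model to all 14 libraries, with TMM scaling and filterByExpr, which kept 22179 of 36555 genes. Each of the 11 comparisons (9 pairwise, 2 interactions) was adjusted by Benjamini-Hochberg over all genes tested, with a threshold of 0.05; a gene past it is called. Values per library are CPM on TMM-scaled library sizes. Standard errors are the log2 fold change over the square root of F, and intervals are 95%. Counting depth was 59913850 to 75838597 per library, and the 2 or 3 libraries of a group limit precision more than depth does, except for BCL2.

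Libraries are numbered as in the count table; in the ferrostatin-1, liproxstatin-1 and TNF groups, whose columns are numbered 1 and 3, columns were matched to the group only. The members and the 6 gene lists were chosen with earlier results of these data known. All 10 members were tested in each comparison; the lists are named by up to 4 called genes of smallest p per list; the other BCL2 family genes may each be named, and the 5 genes most like the member with the widest range of group means are given. Alternatives were relative log expression scaling, other filters on low counts, a block for library number, DESeq2 1.42.0, limma-voom (limma 3.58.1) with quality weights, the compared groups alone and each library left out; marker sums as covariates, and control library 2 with TNF library 1 left out, were added after seeing the data. The edgeR test was also run on simulated counts with changes in the TNF group, 50 genes at each size. Against control it called 2% of 1.5-fold rises, 32% of 2-fold falls, 74% of 4-fold rises and 60% of 8-fold falls, with 7 false calls. Each size was simulated in 1 direction only, so size and direction cannot be told apart, and 2-fold rises were not simulated. The changed genes were drawn from all tested genes, so these shares are not those of the members. A member that was not called is thus not shown to be unchanged. Promoter sequences are from RefSeq (GRCh38.p14), matched by symbol for 8 of 10 members; 6 of 10 members have the start and end of GENCODE v29.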

Additional observations from a re-analysis of the deposited data

How the results depend on the processing

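Across the settings tried, 1472 of the repeated single-member results kept their side of the threshold, 63 passed only under the alternative and 49 were lost. A change of direction was counted only for a result past the threshold in either fit. The 1 such change was BCL2L1 with TNF against control, at -0.33 without control library 2 and TNF library 1. Uncalled results that crossed 0 are among those that kept their side. Examples are MCL1 with TNF against control (-0.12 to 0.08) and BCL2 with TNF in liproxstatin-1 (-0.48 to 0.52). The number called over all tested genes moved with the setting too, so changes in the counts of members are to be read beside it. With liproxstatin-1 added to TNF it was 76 genes, 117 under the stricter filter, 2444 under DESeq2 and 19 with the replicate block. Between the compounds under TNF it was 170 genes, 445 under DESeq2, 813 under limma-voom, 67 with the replicate block and 9 with covariates. Counts of called members, beside the reported values, were as follows. With TNF alone (5): 2 under limma-voom, 2 with the compared groups alone, 2 with marker covariates, 3 without both libraries, and 2 to 7 when single libraries were left out (3 without control library 2, 2 without TNF library 1, 7 without TNF library 3). With ferrostatin-1 alone (0): 1 under DESeq2 and 1 under limma-voom; with liproxstatin-1 alone (0): 1 and 2. With ferrostatin-1 added to TNF (1): 2 under DESeq2, 0 under limma-voom, with the groups alone and with covariates, and 1 to 7 with single libraries left out. With liproxstatin-1 added (0): 1 under the stricter filter, 4 under DESeq2, 1 without both libraries, and 0 to 7 with single libraries left out. Between the compounds under TNF (1): 0 with the replicate block, 2 under DESeq2, 2 under limma-voom, 0 with covariates, 2 without both libraries, and 0 without any single library. TNF in ferrostatin-1 (3): 5 under limma-voom, 1 with covariates, and 1 to 3 with single libraries left out (1 without ferrostatin-1 library 1). TNF in liproxstatin-1 (5): 2 to 4 with single libraries left out (3 without liproxstatin-1 library 1 or TNF with liproxstatin-1 library 1, 2 without library 2 of the latter). Interactions (0 each): 2 under DESeq2 for ferrostatin-1 and 4 for liproxstatin-1, 1 under limma-voom and 3 without both libraries for liproxstatin-1, and 0 to 7 with single libraries left out (7 without TNF library 3, 1 for liproxstatin-1 without TNF library 1). The cause was not tested, beyond that fewer libraries leave fewer degrees of freedom and that each leave-out of a TNF library leaves a lone sample assumed to vary like the other groups.

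Over all tested genes, the number called also moved by more than 1.5 times. With TNF alone it was 3255, and 397 (compared groups alone) to 7380 (without TNF library 3) elsewhere. With ferrostatin-1 alone it was 125, and 11 (covariates) to 1604 (limma-voom). With liproxstatin-1 alone it was 13, and 1 (without liproxstatin-1 library 1) to 1463 (limma-voom). With ferrostatin-1 added to TNF it was 1224, and 2 (covariates) to 7373 (without TNF library 3). With liproxstatin-1 added it was 76, and 0 (groups alone) to 6797 (without TNF library 3). Between the compounds it was 23, and 3 to 343, without TNF, and 170, and 9 to 952, under TNF. For TNF in ferrostatin-1 it was 4019, and 1071 to 7240, and in liproxstatin-1 3240, and 1328 to 6848. The interactions gave 1 and 0, and up to 6147 each without TNF library 3.

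No pairing of the samples by library number was seen. Of 28 same-number pairs, 1 had deviations correlated above 0.1 (median -0.0119, against 0.00685 for 53 pairs of different number). Of 14 libraries, 4 were closest to one of the same number. In a group of 2 libraries the deviations mirror each other, so these pairs are not independent and cannot exclude a pairing. With the block, 2736 genes were called for TNF alone against 3255. The 21 to 61 reads of BCL2 per library, and the groups of 2 libraries, limit what could be detected.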

Other observations

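BIK had the widest range of group means among members with a mean of at least 1 CPM, at 1.80 on the log2 CPM scale. Over the 14 libraries, which share cell line and treatment groups, the tested genes with the most similar log2 CPM were ISOC1 (Pearson r = 0.940), PSME1 (0.918), PLAAT4 (0.916), SIPA1 (0.905) and TM9SF1 (0.904). Their likeness is a description of these 14 libraries.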
